A study of Mus musculus with 90 samples.

Results

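Primary skeletal myoblasts of MyoD-/- mice were compared between the second day of differentiation, sampled at 36 h and 48 h, and the end of the first day, sampled at 18 h and 24 h. The samples were chosen by the time given in their titles, which put 36 of the 90 arrays of the study in the comparison, 18 late and 18 early. These arrays carried 12 RNA samples, 6 late and 6 early, each read on the chip designs MG_U74Av2, MG_U74Bv2 and MG_U74Cv2. Each time was sampled once in each of 3 cultures, named 1999, P6 and P10. All cells lacked MyoD, so both sides of the comparison carry the deletion and no wild-type cells enter it. Growth was in Ham's F10 that held fetal bovine serum and bFGF, a fibroblast growth factor, and differentiation was started by a switch to DMEM with horse serum. What the culture names stand for, and the age and sex of the mice, are not given in the sources used here. Because 18 h and 24 h of a culture, and likewise 36 h and 48 h, come from the same culture, p-values measure the spread between these samples and not between independent isolates.

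MyoD is a transcription factor that, with Myf5, myogenin and MRF4, switches on the muscle programme. When growth factors are withdrawn, myoblasts leave the cell cycle, begin to express myogenin, fuse into multinucleated myotubes and then assemble sarcomeres, the contractile units built of actin thin filaments, myosin thick filaments and the troponin complex that makes them sensitive to calcium. Myoblasts without MyoD are known to enter this programme late and incompletely.

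Values are linear MAS5 signals. Changes are differences in log2(signal + a fixed value), late mean minus early mean, with culture as a block, and the error after a change is its standard error. The fixed value was the 25th percentile of the chip (119.8, 270.1 and 213.0), so changes of genes near or below it are understated. The arrays of the 12 samples had mean signals of 2262 to 2458 on MG_U74Av2, 1946 to 2140 on MG_U74Bv2 and 2442 to 2832 on MG_U74Cv2. The *Myod1* probe set gave 3186 to 6889, which does not check the genotype, since its place relative to the deleted part was not analysed here. Of the myoblast markers 13 of 14 were measured, with a summed signal of 53303 to 79258 early and 45465 to 87527 late. They ranged from *Ncam1* at 6917 to 20720 and *Myf5* at 2489 to 4686 to lower ones. Among the lower were *Des* at 436 to 2618 and *Msc* at 138 to 1197. *Pax7* was not among the genes tested under 1 symbol. Summed signal of the fibroblast markers measured (8 of 14) was 106917 to 148722 early and 79401 to 146128 late, and that of smooth muscle (12 of 14) 84556 to 125146 and 77986 to 112843. It was 9334 to 24904 and 8732 to 20870 for adipocytes (6 of 15), 3912 to 6170 and 3650 to 5443 for endothelium (5 of 12), 4893 to 7343 and 3986 to 5753 for leukocytes (5 of 14), and 9459 to 16863 and 8968 to 17413 for Schwann cells (7 of 11). *Pecam1*, *Cdh5*, *Ptprc* and *Adipoq* were likewise not among them. The part of these cell types in the results was not tested, and in bulk RNA fewer cells of a type and less RNA per cell cannot be told apart.

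The 1999 arrays of 36 h and 48 h stood apart from the rest of their own culture. Relative to 0 h, the mean log2 level of 45 sarcomere genes in 1999 was 0.19 at 24 h, 1.73 at 36 h and 1.56 at 48 h, but only 0.31 at 3 d and 0.50 at 4 d, before 2.86 at 7 d. *Acta1*, skeletal muscle alpha-actin, followed the same course, with 1137 at 24 h, 33054 at 36 h, 22427 at 48 h, 2393 at 3 d and 4796 at 4 d. *Scara5*, a scavenger receptor that binds ferritin, gave 2192 and 2978 in these samples and 201 to 332 in the other 10 samples compared. Transcripts of the sex chromosomes in both arrays lay outside the range of P6 and P10. *Xist* gave 1674 at 36 h and 491 at 48 h, against 730 to 3075 in the other 8 arrays of 1999 and at most 265 in the 20 arrays of P6 and P10. The Y-linked *Eif2s3y* gave 9.43 and 74.5, against 33.8 to 162 in the other 8 arrays and at least 527 in P6 and P10. All arrays of 1999 thus had high *Xist* and low *Eif2s3y*, the pattern of female cells, and those of P6 and P10 the reverse. In differences of 1999 from P6 and P10, the interaction below included, sex and culture cannot be told apart. These transcripts cannot tell the times within 1999 apart, so whether the 36 h and 48 h samples of 1999 hold the times on their labels was not tested, and every late minus early value of 1999 carries that doubt. The list counts below at an unadjusted p under 0.05 are therefore also given without 1999. There 3.03% of all genes were higher and 3.27% lower, and without P6 2.91% and 3.14%. Changes of single genes given only over all 3 cultures carry the same doubt.

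**Figure D1:**
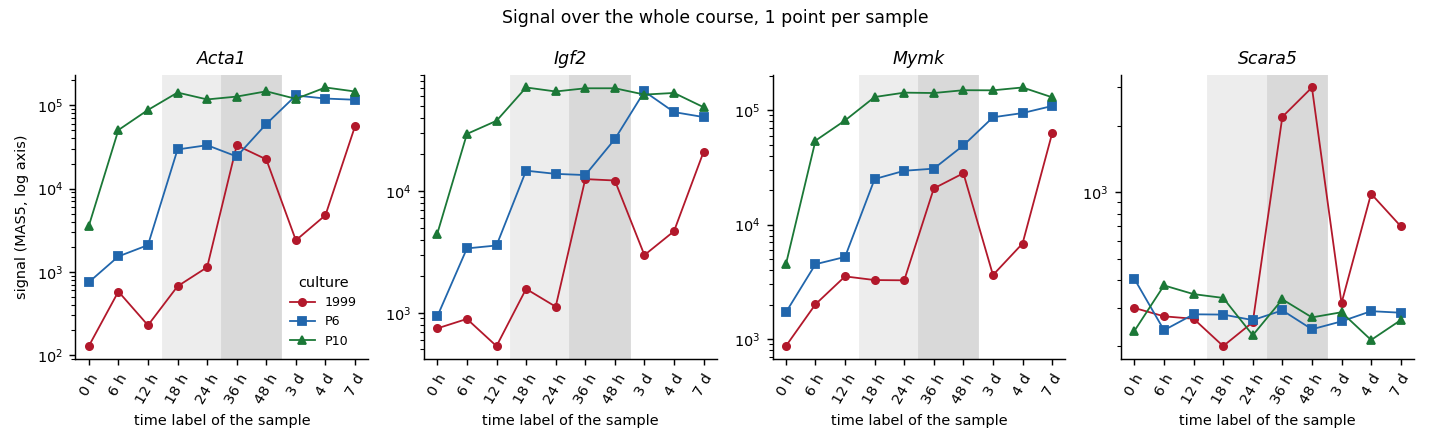
Signal of *Acta1*, *Igf2*, *Mymk* and *Scara5* (log axis) in all 10 times of each culture, 1 point per sample; pale shading marks 18 h and 24 h and darker shading 36 h and 48 h. In 1999 (red) the signals of 36 h and 48 h lie above those of 24 h and of 3 d for all 4 genes, as with 33054 at 36 h and 2393 at 3 d for *Acta1*.

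Over all probe sets, 0 of 24307 (0%) passed an adjusted p of 0.05 for late against early in limma, and the smallest adjusted p was 0.38. At an unadjusted p under 0.05 there were 1720 probe sets (7.08%), 820 higher late (3.37%) and 900 lower (3.7%). The median standard error was 0.19 and the median absolute change 0.15, and 82 probe sets (0.337%) had an absolute change over 1. The genes below are therefore described by their values in the samples and by counts of list members set beside the same count over all 12373 genes. Among those genes, 447 (3.61%) were higher and 475 (3.84%) lower at an unadjusted p under 0.05, and 1766 (14.3%) were higher and 1761 (14.2%) lower in each of the 3 cultures. No list member and no single gene passed after adjustment.

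Genes of the sarcomere were higher late. The list had 45 measured members, of which 27 were higher at an unadjusted p under 0.05 and 1 was lower, beside 3.61% and 3.84% of all genes. In 34 members the change was upward in each of the 3 cultures and in 2 downward, beside 14.3% and 14.2%. The median change of the list was 0.66, against −0.0014 over all genes. Without 1999, 16 members were higher at an unadjusted p under 0.05 (3.03% of all genes), 36 were higher in both remaining cultures (26% of all genes) and the median was 0.47. The size of the change differed by culture, with a median of 1.05 in 1999, 0.52 in P6 and 0.32 in P10, and 1999 had the largest of the 3 changes in 31 of 45 members (68.9%), against 33.3% of all genes.

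The timing differed too. In 1999 the median step of the list was 1.10 from 24 h to 36 h, with 38 of 45 members higher, and −0.14 from 36 h to 48 h, with 18 higher. In P6 it was 0.11 from 24 h to 36 h, with 23 higher, and 0.79 from 36 h to 48 h, with 38 higher. In P10 it was 0.14 and 0.17, with 36 and 32 higher. Of all 12373 genes 6094, 6319 and 6313 were higher at 36 h than at 24 h in 1999, P6 and P10. At 48 h 6233, 5908 and 6078 were above their 36 h value. The cultures also started from different levels: the median log2 level at 18 h was 9.01 in 1999, 9.68 in P6 and 11.85 in P10.

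**Figure D2:**
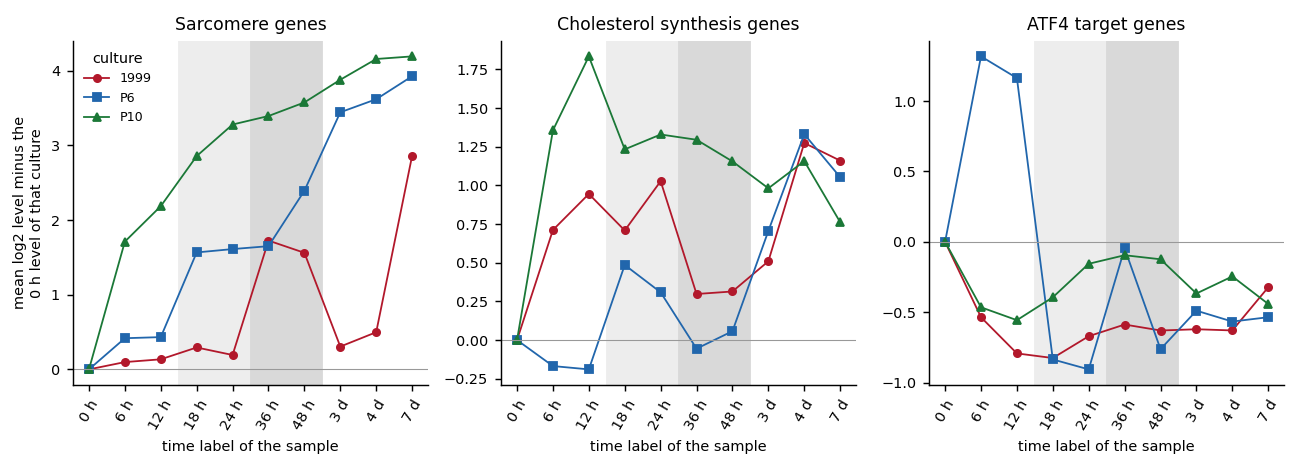
Mean log2 level of the sarcomere, cholesterol synthesis and ATF4 target lists relative to the 0 h sample of the same culture, over all 10 times; pale shading marks 18 h and 24 h, darker shading 36 h and 48 h, and each point is 1 sample. The sarcomere list is at 1.73 at 36 h in 1999 and back at 0.31 at 3 d, while in P6 it goes from 0.43 at 12 h to 1.57 at 18 h, from 1.65 at 36 h to 2.39 at 48 h and on to 3.45 at 3 d.

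To show what lies upstream of these genes, promoter sequence is printed for *Myl4*, *Tnnc1* and *Acta1*, the sarcomere genes with the smallest interaction p-values below, and for *Des* and *Myoz2*, which held both motifs searched. The windows run from 250 bases before to 50 bases after the annotated start, are written 5′ to 3′ on the strand of the gene and come from RefSeq on build GRCm38.p6: chr11:104550413-104550712, plus strand, for *Myl4*; chr14:31208062-31208361, plus strand, for *Tnnc1*; chr8:123894726-123895025, minus strand, for *Acta1*; chr1:75360042-75360341, plus strand, for *Des*; and chr3:123034938-123035237, minus strand, for *Myoz2*. Capitals mark CAGCTG, an E-box of the kind bound by myogenic bHLH factors, and CTA followed by any 4 bases and TAG. The second is a looser form of the core bound by MEF2 factors, in which these 4 bases are A or T. In the match of *Des* they include a C. Both strands were searched, and the motifs do not overlap in these windows.
Myl4: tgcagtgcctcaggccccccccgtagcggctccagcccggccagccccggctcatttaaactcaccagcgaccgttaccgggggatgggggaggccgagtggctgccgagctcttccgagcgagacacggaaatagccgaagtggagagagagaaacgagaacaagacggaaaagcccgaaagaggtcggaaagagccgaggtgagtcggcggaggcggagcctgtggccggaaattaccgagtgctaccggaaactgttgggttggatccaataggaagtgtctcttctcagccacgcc
Tnnc1: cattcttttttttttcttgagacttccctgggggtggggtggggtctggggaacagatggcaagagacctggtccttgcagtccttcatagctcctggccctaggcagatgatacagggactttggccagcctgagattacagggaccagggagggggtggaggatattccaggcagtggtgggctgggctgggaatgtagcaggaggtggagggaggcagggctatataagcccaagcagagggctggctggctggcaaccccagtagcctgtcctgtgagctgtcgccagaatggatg
Acta1: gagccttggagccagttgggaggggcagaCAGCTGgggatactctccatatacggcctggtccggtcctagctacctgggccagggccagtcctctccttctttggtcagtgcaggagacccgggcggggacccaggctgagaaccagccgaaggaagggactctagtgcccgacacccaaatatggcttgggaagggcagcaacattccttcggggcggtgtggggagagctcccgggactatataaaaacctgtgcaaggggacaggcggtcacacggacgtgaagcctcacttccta
Des: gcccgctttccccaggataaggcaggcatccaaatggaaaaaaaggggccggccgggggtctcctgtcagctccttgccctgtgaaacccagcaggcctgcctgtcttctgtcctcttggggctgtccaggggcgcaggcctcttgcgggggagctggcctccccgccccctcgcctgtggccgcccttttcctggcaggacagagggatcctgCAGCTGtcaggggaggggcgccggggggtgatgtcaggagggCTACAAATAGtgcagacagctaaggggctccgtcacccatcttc
Myoz2: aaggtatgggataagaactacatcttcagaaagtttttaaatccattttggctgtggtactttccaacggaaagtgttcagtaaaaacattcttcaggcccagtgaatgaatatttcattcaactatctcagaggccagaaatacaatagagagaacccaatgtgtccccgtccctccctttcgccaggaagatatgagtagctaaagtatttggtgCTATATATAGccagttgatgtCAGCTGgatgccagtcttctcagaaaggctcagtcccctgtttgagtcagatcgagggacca
Of the 45 sarcomere members 37 had a window in the table. CAGCTG was in the window of 15 of these (40.5%), against 18.4% of the 9907 measured genes with a window and 18.3% of all 27025 genes of the table. The looser MEF2-type motif was in 7 (18.9%), against 3.99% and 4.23%. Both were in 2, *Des* and *Myoz2*. A match describes letters only, and neither motif was found in the windows of *Myl4* and *Tnnc1*.

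Among the thin filament genes, *Acta1* read 672 and 1137 in 1999 at 18 h and 24 h and 33054 and 22427 at 36 h and 48 h. It read 29501, 33191, 24286 and 59692 at these times in P6, and 142175, 117570, 127201 and 147141 in P10. Both late samples of 1999 were far above both early ones, in P6 only 48 h was above the early samples, and in P10 the early and late samples overlapped. The change was 4.78 in 1999, 0.28 in P6 and 0.08 in P10, and 1.71 ± 0.66 over all (adjusted p = 0.65 in limma). *Tnnc1*, the calcium-binding troponin C of slow and cardiac muscle, read 278, 608, 15647 and 11189 in 1999, 8601, 11677, 14941 and 24645 in P6 and 72856, 84697, 85045 and 95946 in P10. Every late sample exceeded every early sample of its own culture. Its change was 4.63 in 1999, 0.93 in P6 and 0.20 in P10, with 1.92 ± 0.59 over all (adjusted p = 0.52). Without 1999 the change was 0.57 for *Tnnc1* and 0.18 for *Acta1*. *Tnnt3*, *Tnnt2*, *Tnni1* and *Tnnc2*, further troponin subunits, had changes of 1.01, 0.91, 1.08 and 1.44, all upward in each culture. In 1999 these were 2.24, 1.95, 1.90 and 2.36, in P6 0.52, 0.44, 1.02 and 1.26, and in P10 0.27, 0.32, 0.31 and 0.70. *Actc1*, cardiac alpha-actin that is also made in young muscle fibres, was read like *Tnnc2* by a probe set marked as shared by a gene family. It gave 0.61 ± 0.19, with 1.22 in 1999, 0.35 in P6 and 0.26 in P10. *Tpm1*, a tropomyosin that many cell types make, went the other way: 20105 to 34354 early and 17358 to 24316 late, a change of −0.34 ± 0.09, and it was lower in each culture.

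Among the thick filament genes, *Myl4*, the essential light chain of embryonic and atrial muscle, read 418, 731, 25074 and 18699 in 1999, 20218, 22406, 26999 and 52086 in P6 and 83627, 94038, 102105 and 119281 in P10. Late samples were above early samples in every culture, and the late samples of 1999 came to the level of the earlier samples of P6. The change was 2.05 ± 0.64 (adjusted p = 0.54), made of 5.01, 0.81 and 0.32 in 1999, P6 and P10, and was 0.56 without 1999. A second *Myl4* probe set gave 0.51 ± 0.13. *Myh3*, the embryonic heavy chain, read 20.6, 9.0, 742 and 1033 in 1999, 1358, 1527, 1339 and 6411 in P6 and 14182, 29506, 40802 and 55114 in P10. Late samples were above early samples in 1999 and P10, and in P6 at 48 h but not at 36 h, and the change was 1.69 ± 0.39 (adjusted p = 0.38), and 1.10 without 1999. *Myh8*, the perinatal heavy chain, read 11.7, 21.9, 369 and 277 in 1999, 113, 58.0, 90.5 and 435 in P6 and 1178, 2652, 4175 and 4920 in P10. Its change of 1.24 ± 0.26 was made of 1.69, 0.75 and 1.29 in 1999, P6 and P10. Both early signals of 1999, and those of 18 h, 24 h and 36 h in P6, lay under the fixed value added on this chip. The changes of *Myh8* in 1999 and P6 are therefore understated, and these 3 values do not show that the cultures changed alike. The probe set of *Myh8* carries a suffix that marks an incomplete design. *Myh1* and *Myh7*, heavy chains of fast and slow adult fibres, gave 1.79 ± 0.58 and 1.31 ± 0.38. In 1999, P6 and P10 these were 3.96, 1.11 and 0.32 for *Myh1* and 2.52, 0.61 and 0.80 for *Myh7*. The probe set of *Myh7* is marked as shared by a gene family.

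Some sarcomere genes had similar changes in the 3 cultures. *Xirp1*, an actin-binding protein of muscle cell junctions, read 261, 359, 667 and 654 in 1999, 655, 654, 969 and 1188 in P6 and 2253, 3594, 4455 and 5189 in P10. Both late samples were above both early samples in every culture, and the change was 0.74 ± 0.12 (adjusted p = 0.38), with 0.87, 0.62 and 0.73 in 1999, P6 and P10. *Actn2*, the alpha-actinin of the Z-disc, gave 0.74 ± 0.17, with 0.48, 0.98 and 0.76, and *Mybpc1*, slow myosin-binding protein C, by 0.88 ± 0.22, with 1.01, 0.73 and 0.89. Other members did not move this way: *Ttn*, titin, gave 0.04 ± 0.13, *Tnnt1*, slow troponin T, 0.16 ± 0.11, and *Myoz1*, a Z-disc protein of fast fibres, −0.29 ± 0.20. A second *Tnnt1* probe set, one marked as shared, gave 1.31 ± 0.47.

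**Figure D3:**
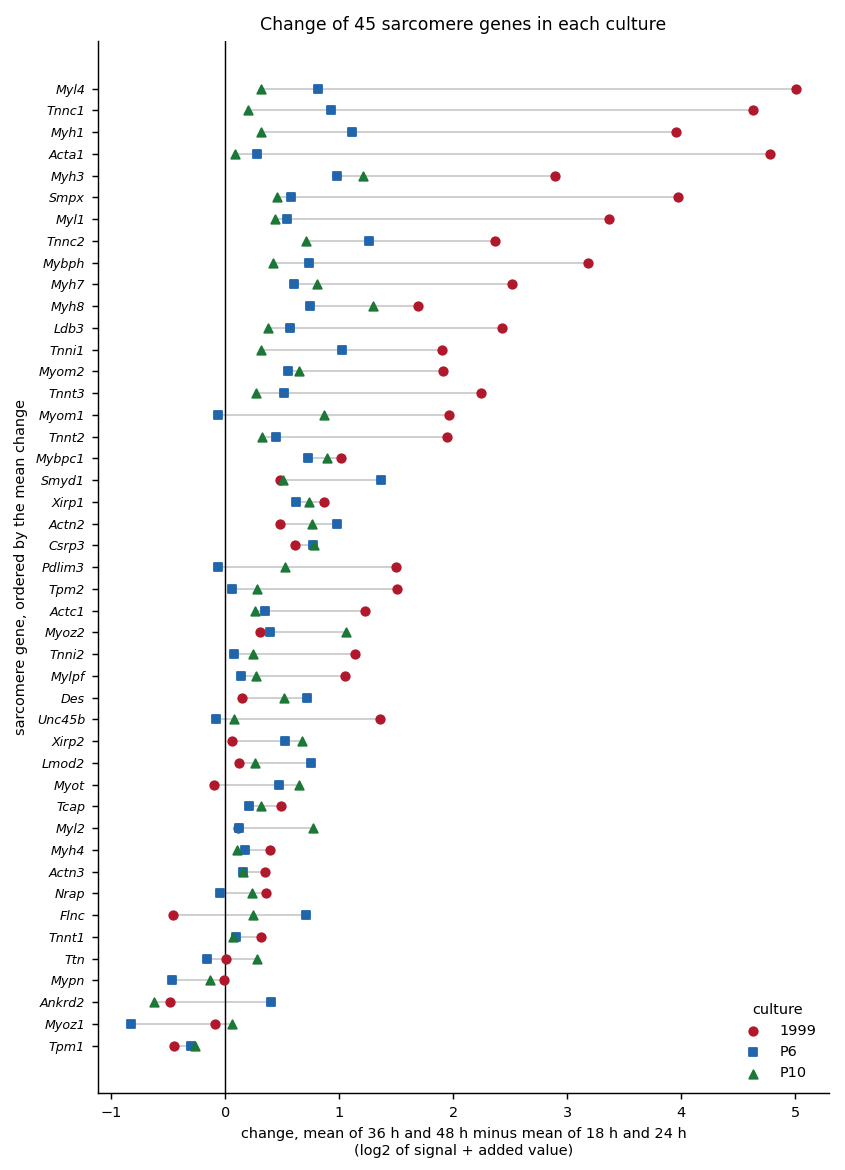
Change of each of the 45 sarcomere genes in each culture, mean of 36 h and 48 h minus mean of 18 h and 24 h on the log2 scale, with genes ordered by their mean change and a grey line joining the 3 cultures. In 34 genes all 3 points lie right of 0, and the 1999 points (red circles) spread to 5.01 (*Myl4*) while no P10 point (green triangles) exceeds 1.29 (*Myh8*).

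Calcium handling and energy supply, which serve contraction outside the filaments, had mixed members. Of 20 measured genes of calcium handling, 8 were higher (40%) and 1 lower (5%) at an unadjusted p under 0.05. Over all genes these shares were 3.61% and 3.84%. Higher in each of the 3 cultures were 12 (60%, beside 14.3%), and the median change was 0.28. Without 1999 1 was higher and 0 lower, near the 3.03% and 3.27% of all genes, with a median of 0.29. *Atp2a2*, a calcium pump of the sarcoplasmic reticulum, read 447, 413, 968 and 927 in 1999, 436, 515, 693 and 1235 in P6 and 2074, 5758, 7301 and 7229 in P10. Late samples were above early ones in every culture, by 0.96, 0.82 and 1.04 (0.94 ± 0.21 over all, adjusted p = 0.38). *Atp2a1*, the fast-fibre pump, gave 0.90 ± 0.24, with 1.69 in 1999, 0.64 in P6 and 0.37 in P10. The probe sets of *Atp2a2* and *Atp2a1* are both marked as shared. *Cacna1s*, the voltage sensor of the calcium channel, gave 0.86 and *Ryr1*, the release channel, 0.69. *Asph*, whose gene also encodes the release-channel partner junctin, was the member lower, by −0.48. Of 21 genes of muscle energy supply, 8 were higher (38.1%) and 0 lower at an unadjusted p under 0.05. Higher in each of the 3 cultures were 7 (33.3%, beside 14.3% of all genes), and the median was 0.22. Without 1999 5 were higher and 0 lower, with a median of 0.11. Of 15 genes of the neuromuscular synapse 2 were higher and 2 lower (13.3% each), with a median of 0.023, and without 1999 1 and 1. *Mb*, myoglobin, read 81.2, 56.9, 1217 and 647 in 1999, 406, 900, 507 and 1769 in P6 and 3024, 5280, 6884 and 11043 in P10, a change of 1.37 ± 0.36 (adjusted p = 0.42), and of 0.84 without 1999. *Cox6a2*, the muscle form of a cytochrome oxidase subunit, gave 1.84 in 1999 and 1.88 in P6 but 0.15 in P10. *Ckm*, muscle creatine kinase, gave −0.17 ± 0.20 with its unmarked probe set and 0.67 ± 0.28 with one marked as a family probe set, while 2 others gave −0.08 ± 0.20 and −0.10 ± 0.56.

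Of the 15 myogenic factors measured, 6 were higher (40%) and 0 lower at an unadjusted p under 0.05, with a median of 0.20. Over all genes these shares were 3.61% and 3.84%. Without 1999 3 were higher and 0 lower, beside 3.03% and 3.27% of all genes, with a median of 0.20. *Mef2c*, a MADS-box factor that acts with the myogenic bHLH proteins, read 66.0, 44.5, 422 and 234 in 1999, 233, 83.5, 287 and 2126 in P6 and 2705, 3583, 5836 and 6066 in P10. It was higher in both late samples of every culture (1.36 ± 0.35, adjusted p = 0.40), and its 6 further probe sets gave changes between 0.10 and 0.89. *Myog*, myogenin, read 846, 1125, 3123 and 2767 in 1999, 6785, 6946, 8815 and 11048 in P6 and 34497, 33231, 32666 and 32592 in P10, so that it differed little over time in P10 (1.48, 0.52 and −0.05; 0.65 ± 0.21 over all, adjusted p = 0.57; 0.23 without 1999). *Myf6*, which encodes MRF4, gave 0.34 ± 0.14, with 0.04, 0.38 and 0.61. *Myf5* gave −0.64 in 1999, −0.08 in P6 and 0.51 in P10. Among 17 inhibitors of myogenesis none had an unadjusted p under 0.05 with all cultures. Without 1999 1 was higher and 3 lower, beside 3.03% and 3.27% of all genes. *Id1* gave −0.29 ± 0.16 and *Id3* −0.23 ± 0.19.

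Fusion genes included *Mymk*, myomaker, the membrane protein that myoblasts need to fuse. It read 3280, 3264, 20729 and 28139 in 1999, 25035, 29576, 30864 and 49263 in P6 and 130393, 142452, 141344 and 149595 in P10. The change was 2.79 in 1999, 0.52 in P6 and 0.09 in P10 (1.13 ± 0.36 over all, adjusted p = 0.55; 0.30 without 1999). *Cav3*, the caveolin of muscle, gave 0.72 ± 0.18, while *Cd9*, a tetraspanin that restrains fusion in regenerating muscle, gave −0.40 ± 0.11. Over the 22 fusion and adhesion genes, 4 were higher (18.2%) and 1 lower (4.55%) at an unadjusted p under 0.05. All genes gave 3.61% and 3.84%, and the list median was 0.0052. Without 1999 1 was higher and 1 lower, near the 3.03% and 3.27% of all genes, with a median of −0.011.

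The difference between cultures was tested as an interaction of culture and phase, and 0 of 24307 probe sets passed (0%), with 1275 (5.25%) at an unadjusted p under 0.05. The smallest adjusted p was 0.053, for *Myl4*, and those of *Tnnc1*, *Acta1* and *Scara5* were 0.065. *Igf2*, insulin-like growth factor 2, which promotes muscle differentiation, read 1571, 1122, 12545 and 12217 in 1999, 14718, 13853, 13541 and 26737 in P6 and 71066, 65858, 69965 and 69998 in P10 (interaction adjusted p = 0.11). With the chip median as the added value 6 probe sets passed, those of *Myl4*, *Tnnc1*, *Acta1*, *Igf2*, *Mymk* and the chemokine *Cxcl1*, and with a filter of 6 of the 12 arrays above the chip median 3 passed, *Myl4*, *Tnnc1* and *Acta1*. *Reck*, a membrane-anchored inhibitor of metalloproteases, took another pattern, at 479 and 560 early and 107 and 56.2 late in P6, against changes of 0.35 in 1999 and 0.75 in P10 (interaction adjusted p = 0.065).

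Genes of cholesterol synthesis were lower late. The median change of the 19 measured members was −0.34, against −0.0014 over all genes. All 19 had a change below 0 in the fit over the 3 cultures, between −0.82 and −0.061. Of these, 6 were lower (31.6%) and 0 higher at an unadjusted p under 0.05, beside 3.84% and 3.61% of all genes. Lower in each of the 3 cultures were 7 (36.8%, beside 14.2%). *Idi1*, isopentenyl diphosphate isomerase, had the lowest value, −0.82 ± 0.20. *Fdps*, farnesyl diphosphate synthase, read 13003, 14368, 7946 and 10417 in 1999, 14234, 11569, 6447 and 5695 in P6 and 43236, 33666, 31959 and 26858 in P10. Both late samples were below both early ones in every culture (−0.58, −1.07 and −0.38; −0.68 ± 0.14 over all, adjusted p = 0.38). A family probe set of *Fdps* gave −0.61 ± 0.17, while another with low signals, 74.0 to 696, gave −0.11 ± 0.40. *Nsdhl*, a sterol dehydrogenase, gave −0.43 ± 0.09, and 4 further probe sets of it lay between −0.60 and −0.37. The values at 36 h were mostly below those at 24 h in 1999 and P6: 0 of 19 members were higher at 36 h in 1999, 4 in P6 and 8 in P10, against 6094, 6319 and 6313 of 12373 genes. The culture medians were −0.54, −0.39 and −0.027 in 1999, P6 and P10. Without 1999 the list median was −0.21, with 4 members lower at an unadjusted p under 0.05 (3.27% of all genes). Of 19 fatty acid genes 4 were lower (21.1%) and 0 higher at an unadjusted p under 0.05, beside 3.84% and 3.61% of all genes. Without 1999 2 were lower and 0 higher. Among the 4 were *Elovl6*, a fatty acid elongase (−0.79 ± 0.19), and *Cpt1a*, the liver-type carnitine transferase of mitochondria (−0.45 ± 0.10).

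Targets of ATF4, the factor that answers amino acid lack and other stress, were higher as a list, with culture medians of 0.097 in 1999, 0.35 in P6 and 0.19 in P10. Of 26 measured, 6 were higher (23.1%) and 0 lower at an unadjusted p under 0.05, beside 3.61% and 3.84% of all genes. Higher in each of the 3 cultures were 11 and lower 0, beside 14.3% and 14.2%, and the median was 0.19. Without 1999 6 were higher and 0 lower (3.03% and 3.27% of all genes), and without P6 3 and 0 (2.91% and 3.14%). *Slc7a5*, a transporter of large neutral amino acids, read 2944, 2998, 5390 and 5149 in 1999, 3292, 4215, 8048 and 6022 in P6 and 6591, 9959, 10786 and 12289 in P10. Both late samples were above both early ones in every culture (0.73 ± 0.13, adjusted p = 0.38). *Mthfd2*, a mitochondrial enzyme of one-carbon metabolism, behaved alike, with 0.67, 1.07 and 0.64 in 1999, P6 and P10 (0.80 ± 0.16, adjusted p = 0.38). Of the 4 times compared, the list was highest at 36 h in P6, though at −0.05 relative to 0 h it was below the 1.32 of 6 h and the 1.16 of 12 h: 22 of 26 members were above their 24 h value, with a median step of 0.91, and only 2 were above their 36 h value at 48 h, with a median step of −0.52. The median step from 24 h to 36 h was 0.14 in 1999 and 0.09 in P10. Ribosome biogenesis genes followed the same course in P6, with 22 of 26 higher at 36 h (median step 0.61) and 4 higher at 48 h (−0.38). The 36 h sample of P6 moved other lists as well: 26 of 31 ribosomal proteins and 26 of 30 proteasome and ubiquitin genes were above their 24 h value, with 2 and 6 above their 36 h value at 48 h, and for the matrix list these counts were 9 and 31 of 41. Of all 12373 genes in P6, 6319 were above their 24 h value at 36 h and 5908 above their 36 h value at 48 h. The part of that 1 sample in the ATF4 and ribosome biogenesis values was not tested beyond leaving out P6. Over the 3 cultures 7 of the 26 ribosome biogenesis genes were higher at an unadjusted p under 0.05 (26.9%, beside 3.61% of all genes). Without 1999 there were 7 (3.03% of all genes) and without P6 2 (2.91%). Among the 7 over the 3 cultures was *Gnl3*, nucleostemin, at 815 to 1174 early and 1236 to 1548 late.

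**Figure D4:**
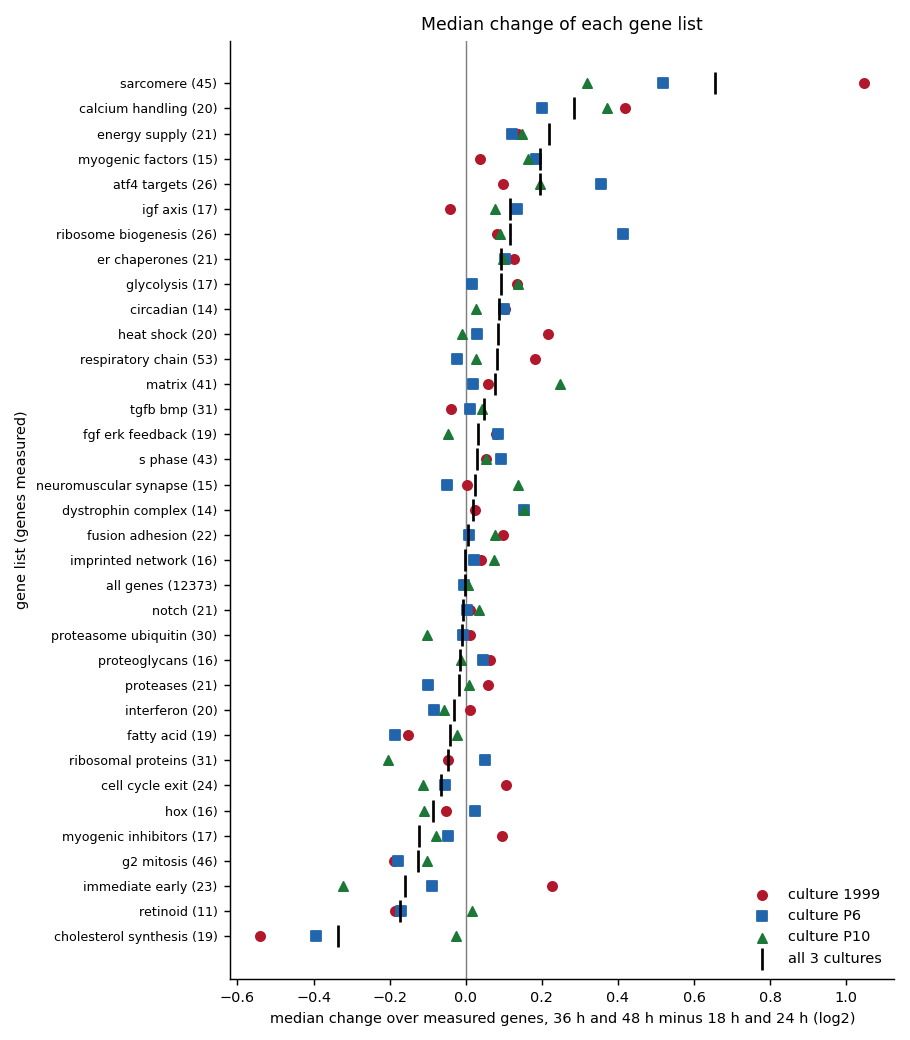
Median change of 34 gene lists and of all genes, late minus early on the log2 scale; coloured points are the cultures 1999, P6 and P10 and the black bar is the median of the change fitted over all 3. The sarcomere list lies furthest right, at 0.66, and cholesterol synthesis furthest left, at −0.34, and in both the 1999 point is further from 0 than those of P6 and P10.

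Genes of cell division were already low at the early times. Relative to 0 h, the mean log2 level of the G2 and mitosis list at 18 h was −2.13 in 1999, −2.85 in P6 and −2.54 in P10. Of its 46 genes 0 were higher and 3 lower (6.52%) at an unadjusted p under 0.05, beside 3.61% and 3.84% of all genes. The median was −0.13, and without 1999 0 were higher and 2 lower. *Kif23*, a kinesin of cytokinesis, read 490, 368, 240 and 199 in 1999, 525, 403, 202 and 178 in P6 and 96.2, 240, 57.9 and 166 in P10 (−0.63 ± 0.17, adjusted p = 0.43), though its 2 further probe sets gave −0.18 and −0.09. *Cdk1*, the kinase that drives mitosis, gave −0.51 ± 0.15. *Mki67* read 6.30 to 35.1 on 1 probe set, under the added value in all samples, and 233 to 608 on another, which gave −0.08 ± 0.15. Of 43 S phase genes 6 were higher (14%) and 0 lower at an unadjusted p under 0.05, beside 3.61% and 3.84% of all genes. These counts were 5 and 1 without 1999. Without P6 they were 0 and 1, beside 2.91% and 3.14% of all genes. *Dut* gave 0.73 ± 0.24. *Cdkn1a*, the p21 inhibitor, gave 0.09 ± 0.09, and *Ccnd1*, cyclin D1, 0.07 ± 0.17.

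In the matrix, 5 of 41 genes were higher (12.2%) and 2 lower (4.88%) at an unadjusted p under 0.05. Over all genes these shares were 3.61% and 3.84%. Higher in each of the 3 cultures were 12 (29.3%, beside 14.3%), and the median was 0.076. Without 1999 1 was higher and 1 lower (3.03% and 3.27% of all genes), and without P6 11 and 0 (2.91% and 3.14%). *Lama2*, the laminin chain of the muscle basement membrane, had the smallest p of all genes (5.8e-05 unadjusted, adjusted p = 0.38 in limma). It read 422, 299, 574 and 657 in 1999, 198, 215, 365 and 449 in P6 and 351, 411, 620 and 952 in P10. Both late samples were above both early ones in every culture, by 0.63, 0.69 and 0.83 (0.72 ± 0.12 over all). *Postn*, periostin, which is also one of the fibroblast markers, read 304, 581, 4127 and 4123 in 1999, 2686, 4466, 1516 and 8257 in P6 and 1591, 3519, 4680 and 6751 in P10. Its change of 1.40 ± 0.49 held 2.96 in 1999, 0.05 in P6 and 1.20 in P10, and was 0.62 without 1999. Of the 8 fibroblast markers 2 were higher and 1 lower at an unadjusted p under 0.05, and 1 and 1 without 1999. *Dcn*, decorin, gave 0.46 ± 0.16, and *Igfbp6*, which binds insulin-like growth factors, by −0.84 ± 0.18.

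Other genes with small p-values lay outside these lists and were picked out after their values were seen. *Olfml2b*, which encodes an olfactomedin-like matrix protein, read 2336, 1883, 614 and 911 in 1999, 7300, 7390, 3875 and 5564 in P6 and 8827, 6574, 4212 and 4164 in P10, lower in both late samples of every culture (−0.89 ± 0.16, adjusted p = 0.38), though a second probe set gave −0.093. *Arhgap26*, a GTPase-activating protein, read 2884, 3258, 2011 and 1342 in 1999, 2538, 2652, 1445 and 892 in P6 and 1577, 1094, 397 and 403 in P10 (−1.06 ± 0.19, adjusted p = 0.38). *Wdr45*, a protein of autophagy, gave −0.53, −0.50 and −0.52 in the 3 cultures. *Tagln2* and *Capg*, which bind actin, gave −0.44 ± 0.09 and −0.53 ± 0.11, though a family probe set of *Capg* gave 0.47 ± 0.24.

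**Figure D5:**
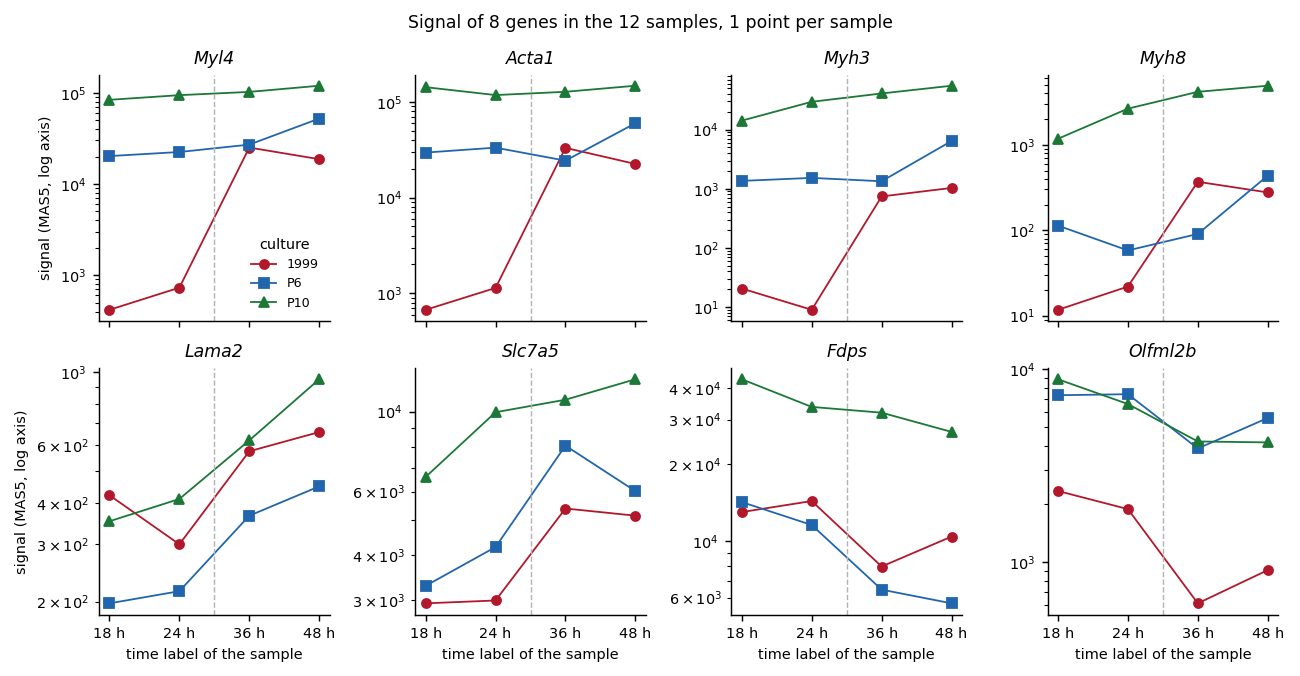
Signal (log axis) of 8 genes at 18 h, 24 h, 36 h and 48 h in each culture, 1 point per sample, with a dashed line between the early and late times. The top row shows sarcomere genes, whose 3 cultures lie at different levels and step at different times, and the bottom row genes whose late samples lie on 1 side of the early samples within each culture.

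For 17 genes (0.137% of 12373) the 6 late and 6 early samples did not overlap, 10 higher (0.0808%) and 7 lower (0.0566%). None of them was among the 45 sarcomere genes, but at a share of 0.137% of all genes this absence says nothing about that list. *Stx17*, a SNARE protein of autophagosomes, read 1345 to 1826 early and 709 to 1270 late (−0.61 ± 0.12), though 3 further probe sets gave −0.073, −0.013 and 0.23. *Xpo1*, the main nuclear export receptor, read 673 to 962 early and 971 to 1382 late (0.45 ± 0.12). *Idh2*, the mitochondrial isocitrate dehydrogenase, read 4595 to 5092 early and 3317 to 4332 late (−0.32 ± 0.10). *Piezo1*, a mechanically gated ion channel, read 10463 to 11772 early and 12002 to 18565 late (0.41 ± 0.14); the nearest late sample was thus just above the highest early one.

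Neighbouring times were also compared, with culture as a block. From 18 h to 24 h 0 probe sets passed (0%) in limma and 1264 (5.2%) had an unadjusted p under 0.05. From 24 h to 36 h these were 0 and 947 (3.9%), from 36 h to 48 h 0 and 1315 (5.41%), and from 24 h to 48 h 0 and 1507 (6.2%). The percentages were 3.9 between the early and the late times and 5.2 and 5.41 within them. *Loxl3*, a lysyl oxidase of the matrix, read 2394, 1728 and 1109 at 36 h and 300, 323 and 383 at 48 h in 1999, P6 and P10, and 699 to 2423 early (−1.69 ± 0.30 from 36 h to 48 h, adjusted p = 0.55). *Gpc6*, a cell surface proteoglycan, read 2363, 3880 and 3859 at 36 h and 6042, 9252 and 7257 at 48 h (1.11 ± 0.18, adjusted p = 0.50). *Zfp503*, a zinc finger protein, read 271, 192 and 137 at 24 h and 1142, 555 and 880 at 48 h (1.24 ± 0.19, adjusted p = 0.59), from a level at or under the added value of its chip. For these 3 genes every 48 h sample lay on 1 side of the earlier sample of its culture.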

How the data were processed

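RNA of the 12 samples was measured on 3 Affymetrix chips each. The authors deposited linear signal intensity from MAS5, per the submitters' processing notes; its version and scaling target are not given in the sources used here. The series tables were used as deposited, with array-level instrument records for scan dates only, and no dates are printed.

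From these values log2(signal + 25th percentile of the chip) was computed. Without the 66 controls of each chip, and requiring signal above the chip median on 3 or more of 30 arrays, 7423, 8254 and 8630 probe sets were tested. Of these 24307, 19865 had 1 symbol and 4442 several or none, which were tested but not named. Symbols came from the platform annotation, updated through gene IDs. A gene took 1 probe set, from MG_U74Av2 before MG_U74Bv2 before MG_U74Cv2, without a suffix mark where possible, then by highest mean signal; 51 further probe sets of named genes gave the same sign in 44 cases and the opposite in 7.

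Each chip was fitted in limma 3.58.1 (R 4.3.3) with culture as a block, with moderated two-sided tests, Benjamini-Hochberg adjustment over the 3 chips and a threshold of 0.05. The fit was tested on simulated data. The interaction of culture and phase was an F test, in which the 2 times of a phase stand in for replicates, and steps between times used a model of time and culture. Culture names in the titles pair the samples. Deviations from time means correlated with a median of 0.59, 0.37 and 0.15 between arrays of a culture on the 3 chips. On MG_U74Cv2 these pairs ran from −0.013 to 0.26. Between cultures the medians were −0.21, −0.15 and −0.05. Deviations from a mean of 3 cultures cancel out, so negative values between cultures follow from the method and say nothing more on the pairing. The number of arrays limits the precision.

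The members, lists and rules were chosen with earlier results of these data known. The rule named 24 myogenic, cell cycle and matrix genes whatever their value, genes that passed, the 8 smallest interaction p-values and the 3 smallest of each step. Since none passed, counts at an unadjusted p under 0.05 and by direction in the 3 cultures, and the genes with the 20 smallest p-values, without overlap or with the 2 smallest p-values of a list, were chosen after the values were seen. Of 41 lists, 866 of 1104 entries were measured. *H19* was not among the genes tested under 1 symbol. Alternatives varied the added value, filter, scaling, block, arrays and variance model, and left out each culture. Promoter windows were searched with Python 3.11.15.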

Additional observations from a re-analysis of the deposited data

Results flagged for a closer look

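In 10 of 236 groups of 6 samples, early or late, of the genes named, 1 sample lay far from the others by Dixon's test on the log2 scale, about as often as the 1 in 20 groups that chance gives. Among the late samples, *Ccnd1* read 16649 in 1999 at 48 h (next 9026), *Kcnc4* 1155 in 1999 at 36 h (next 719) and *Plau*, urokinase, 314 in 1999 at 48 h (next 1947). *Sspn*, sarcospan, read 2521 in P6 at 36 h (next 4077). In P10, *Kif23* read 57.9 at 36 h (next 166), *Mis12* 1021 at 36 h (next 1331), *A330032P22Rik* 196 at 48 h (next 684) and *1700042G07Rik* 632 at 48 h (next 733). Among the early samples, *Fstl1*, follistatin-like 1, read 4963 in P6 at 24 h (next 6048) and *Loxl3* 699 in P10 at 24 h (next 1991). The part of these samples in the results was not tested beyond leaving out each culture.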

How the results depend on the processing

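The count of probe sets passing for late against early was 0 under all 13 alternatives run, and of 1509 values of the 118 named genes under them 1496 kept their sign, 13 took the opposite sign and 0 passed. Pairing by culture mattered for the unadjusted counts: with no replicate block 0 sarcomere members were higher and 0 cholesterol synthesis members lower at an unadjusted p under 0.05, against 27 and 6 with it, since differences between cultures then enter the error. With all 30 arrays in the fit these counts were 14 and 1, and leaving out 1 culture gave 16 to 29 and 4 to 8. With 1 culture left out 2.91% to 3.6% of all genes were higher and 3.14% to 3.67% lower. The shares of all genes with no block and with all 30 arrays are not given here. Those counts therefore do not show how far the lists stand out. The medians of both lists kept their sign in every alternative, between 0.42 and 0.82 and between −0.49 and −0.21. For the interaction, 6 probe sets passed with the 50th percentile added and 3 with the filter of 6 of the 12 arrays. With all 30 arrays, 1 probe set passed from 18 h to 24 h (*Ogdh*, 1.61, adjusted p = 0.034 in limma) and 1 from 24 h to 48 h (*Efcab11*, 1.72, adjusted p = 0.040), and the cause was not tested. Opposite signs, none passing, were found for *Eid2b* (0.015 with the 10th percentile added, 0.016 with array weights) and *Hba-a1* (0.0097 with array weights). Leaving out 1 culture turned the sign of 9 genes, none passing, with values from −0.12 to 0.18 for *Ccnd1*, −0.19 to 0.18 for *Chrng*, −0.33 to 0.077 for *Ckm*, −0.80 to 0.42 for *H2-DMb1* and −0.36 to 0.22 for *Myf5*, each turned without 1999. The values ran from −0.091 to 0.015 for *Mki67* and −0.66 to 0.55 for *Reck*, turned without P6, from −0.73 to 0.11 for *Cdkn1c*, turned without P6 (0.11) and without P10 (0.022), and from −0.17 to 0.078 for *Eid2b*, turned without P10. Scan date as a further block was not run, because it coincides with culture wherever a date is recorded, so where dates exist the values within each culture are also those within each scan date; for P10 on MG_U74Cv2 no date was found. Signals under the added value, as on 1 of the *Mki67* probe sets, carry little information on change.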
